A study of Mus musculus with 4 samples.

Results

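Complement genes were followed by name in a single-cell RNA sequencing experiment on immune cells of mouse melanomas: the C1q chains C1qa, C1qb and C1qc, the components C3, C4b, Cfb and Cfp, and the anaphylatoxin receptors C3ar1 and C5ar1. These 9 are part of the 32285 genes of the deposited matrix. They were listed by gene name, and the list was made with earlier results of these data known. UMIs of all 9 were found in all 4 samples.

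CD45+ cells were sorted from tumours of Rag2-/- mice, which make no T or B cells of their own. Every tumour was grown from YUMM1.7OVA cells, a mouse melanoma line with mutant Braf that expresses ovalbumin, and every host received OT-1 CD8+ T cells, which recognise an ovalbumin peptide, on day 7 and was sampled on day 10, 72 h later. NTT was the line naive to targeted therapy (labelled 3A6), RTT a line resistant to BRAF inhibition (labelled 2B12), RTT_ROSA26 a resistant line with a control guide against the Rosa26 locus, and RTT_PTGS12KO a resistant line in which Ptgs1 and Ptgs2, the genes of the prostaglandin-making enzymes COX-1 and COX-2, had been knocked out. Each group is 1 sample: the labels give 1 tumour per condition, the figure legends of the study describe pooled tumours, and the mice of all groups were young adults by the age range in the study's methods. As there is 1 sample in each group, differences could not be set against replicates, no test was run, and all intervals are 95% intervals for counting error only.

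Complement is a cascade of blood and tissue proteins that marks particles and dying cells for uptake and releases small peptides that attract and activate myeloid cells. The classical pathway starts with C1q, a molecule built from A, B and C chains, and passes through C4 to C3. The alternative pathway amplifies C3 cleavage through factor B and is stabilised by properdin. The liver makes most circulating complement, but C1q comes mainly from macrophages and dendritic cells, and C1q-expressing macrophages are known from many tumours.

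The matrix held 33368 cells in 17 named cell types, and the samples held 6836 to 10296 cells and 69332486 to 146829369 UMIs (unique molecular identifiers, which count captured transcripts), with a median of 7292.5 UMIs per cell in NTT and 12219 to 13280 in the others. Samples were pooled before loading, so free RNA was shared by all 4, and 0 barcodes were shared between samples within a load. Monocytes (the types Monocyte_1, Infl_Mono and Monocyte_3) numbered 6619 in NTT and 522 in RTT, with 144 in RTT_ROSA26 and 4015 in RTT_PTGS12KO. Macrophages (the TAM types and Ctsk_Macro) numbered 308, 6734, 5993 and 5207. The type Macro (21, 99, 130 and 96 cells) is in neither class and is given apart. Its macrophage marker genes summed to 28238 per 1000000 UMIs in RTT, 29829 in RTT_ROSA26 and 4933 in RTT_PTGS12KO. What it would add to the macrophage sums was not tested. By its leading genes Infl_Mono was led by interferon-stimulated genes, and the types Macro, TAM_H2Ab1 and TAM_Spp1 had no marker of a fixed list among their 10 leading genes. Because the edit was made in the cancer cells and the sort took CD45+ cells, Ptgs1 (6.20 to 68.1 per 1000000 UMIs) and Ptgs2 (231 to 562) check nothing about the labels. The types were clustered on the same genes, and C3 and Cfb are among the leading genes of Monocyte_1, so differences between types are descriptions.

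The C1q genes lie side by side on chromosome 4, all on the minus strand, within 18675 bases (chr4:136880129-136898803, GRCm38, GENCODE). The table of RefSeq promoters held 6 of the 9 genes, and C1qa, C4b and Cfb were missing. The bases upstream of C1qb (chr4:136886201-136886450, minus strand), C1qc (chr4:136893066-136893164, minus strand) and C3 (chr17:57228137-57228386, minus strand) are shown because the C1q genes and C3 differed in opposite directions between the samples. They are the 250 bases before the RefSeq start in GRCm38.p6 (for C1qc, the 99 of them outside the GENCODE gene, which end 151 bases before that start), read 5′ to 3′, with capitals for the letters GAGGAA of the PU.1 core on either strand.
C1qb: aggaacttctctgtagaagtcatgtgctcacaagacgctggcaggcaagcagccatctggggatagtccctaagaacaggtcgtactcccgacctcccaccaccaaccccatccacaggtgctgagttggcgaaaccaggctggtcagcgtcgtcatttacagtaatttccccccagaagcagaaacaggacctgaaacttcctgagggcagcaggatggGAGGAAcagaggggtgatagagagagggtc
C1qc: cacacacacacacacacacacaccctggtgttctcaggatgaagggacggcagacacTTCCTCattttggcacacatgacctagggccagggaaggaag
C3: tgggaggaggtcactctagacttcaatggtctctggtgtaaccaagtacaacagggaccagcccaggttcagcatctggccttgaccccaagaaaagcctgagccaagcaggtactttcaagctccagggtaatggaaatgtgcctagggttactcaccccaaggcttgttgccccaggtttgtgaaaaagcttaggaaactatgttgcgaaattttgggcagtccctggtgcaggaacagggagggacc
PU.1 is the lineage factor of myeloid cells. The core lay on the plus strand of the C1qb sequence, 30 to 25 bases before the start, and on the opposite strand of C1qc, 193 to 188 bases before it. The same window held it in 23.3% of 32851 promoters. Neither the STAT site TTCNNNGAA (7.02% of promoters) nor the interferon-response core GAAANNGAAA (2.98%) was found in these letters in any of the 6 promoters, on either strand, and the windows of C3, C3ar1, C5ar1 and Cfp held none of the 3 motifs.

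C1q, the recognition molecule of the classical pathway, was lowest in NTT and highest in RTT and RTT_ROSA26 when monocytes and macrophages were summed. In monocytes and macrophages summed, C1qa stood at 1093 per 1000000 UMIs (CPM) in NTT and 2548 in RTT, with 2521 in RTT_ROSA26 and 1704 in RTT_PTGS12KO. C1qb, the B chain, followed the same order of NTT, RTT_PTGS12KO and then the other resistant samples, with 2099, 4099, 3862 and 3173 CPM. C1qc, the C chain, reached 957, 2208, 2029 and 1523 CPM. The counting intervals of NTT and RTT_PTGS12KO lay apart from each other and from those of the other samples for all 3 chains.

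Within macrophages the order changed. Among macrophages alone C1qa stood at 2864 CPM in NTT and 2599.8 in RTT, with 2539.5 in RTT_ROSA26 and 2053 in RTT_PTGS12KO, so NTT was the highest and not the lowest. The order rests on how macrophages are grouped, since NTT was the lower sample (C1qa at a log2 ratio of −0.35 to RTT) when each cell was assigned by its marker UMIs, which put 1108 cells of NTT in this class in place of 308. Among monocytes C1qa stood at 953 CPM in NTT and 1523 in RTT, with 651 in RTT_ROSA26 and 950.5 in RTT_PTGS12KO. The monocytes of RTT were the highest of the 4, and those of RTT_ROSA26, which are only 144 cells, the lowest. By marker UMIs the monocytes of NTT lay above those of RTT (log2 ratios of 0.49 for C1qa, 0.21 for C1qb and 0.45 for C1qc).

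By cell type the summed chains were high in TAM_H2Ab1 (10292 to 13665 CPM), TAM_C1q (9159.7 to 11179.8) and, in RTT and RTT_ROSA26, Macro (11789.5 and 10934), which held 5323 CPM in RTT_PTGS12KO. TAM_cycling held 7513 to 9888 CPM and TAM_Spp1 3720.3 to 5241, and the osteoclast-like Ctsk_Macro, which expresses the bone-resorbing proteases Ctsk and Mmp9, only 1243 to 3967. Monocyte_1 stood at 3298 to 5921 CPM and Infl_Mono at 1584 to 6061. In lymphocytes, which do not make C1q, the sums were 398 CPM in the T cells of NTT and 507 and 666 CPM in the NK cells of NTT and RTT_PTGS12KO, so cDC2 (948 to 1369 CPM) stood above them but close. The cluster named Neutro held 3089.6 to 6502 CPM of C1q beside 2705 to 17271 CPM of 10 macrophage markers, whose part in its C1q was not tested.

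Per cell nearly all C1q macrophages held C1q UMIs, whereas monocytes ranged from none to the level of macrophages. After thinning each cell to 4000 UMIs, the median TAM_C1q cell held 46 C1q UMIs in RTT (quartiles 35 and 56.3), 44 in RTT_ROSA26 (33 and 56) and 37 in RTT_PTGS12KO (28 and 46). Between 0.46% and 1.04% of these cells held none. The median Monocyte_1 cell held 9 in NTT (quartiles 1 and 25), 21 in RTT (2 and 37.5) and 13 in RTT_PTGS12KO (1 and 26), and 22.1%, 14.7% and 16.9% of them held none. Monocyte_1 thus ranged from cells at the level of the T cells (median 0, quartiles 0 and 1) to cells within the range of TAM_C1q, with 10th and 90th percentiles of 0 and 39 to 51.4, against 19 to 25 and 56 to 67 in TAM_C1q. The median TAM_Spp1 cell held 17 in RTT, 5 in RTT_ROSA26 and 19.5 in RTT_PTGS12KO.

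**Figure D1:**
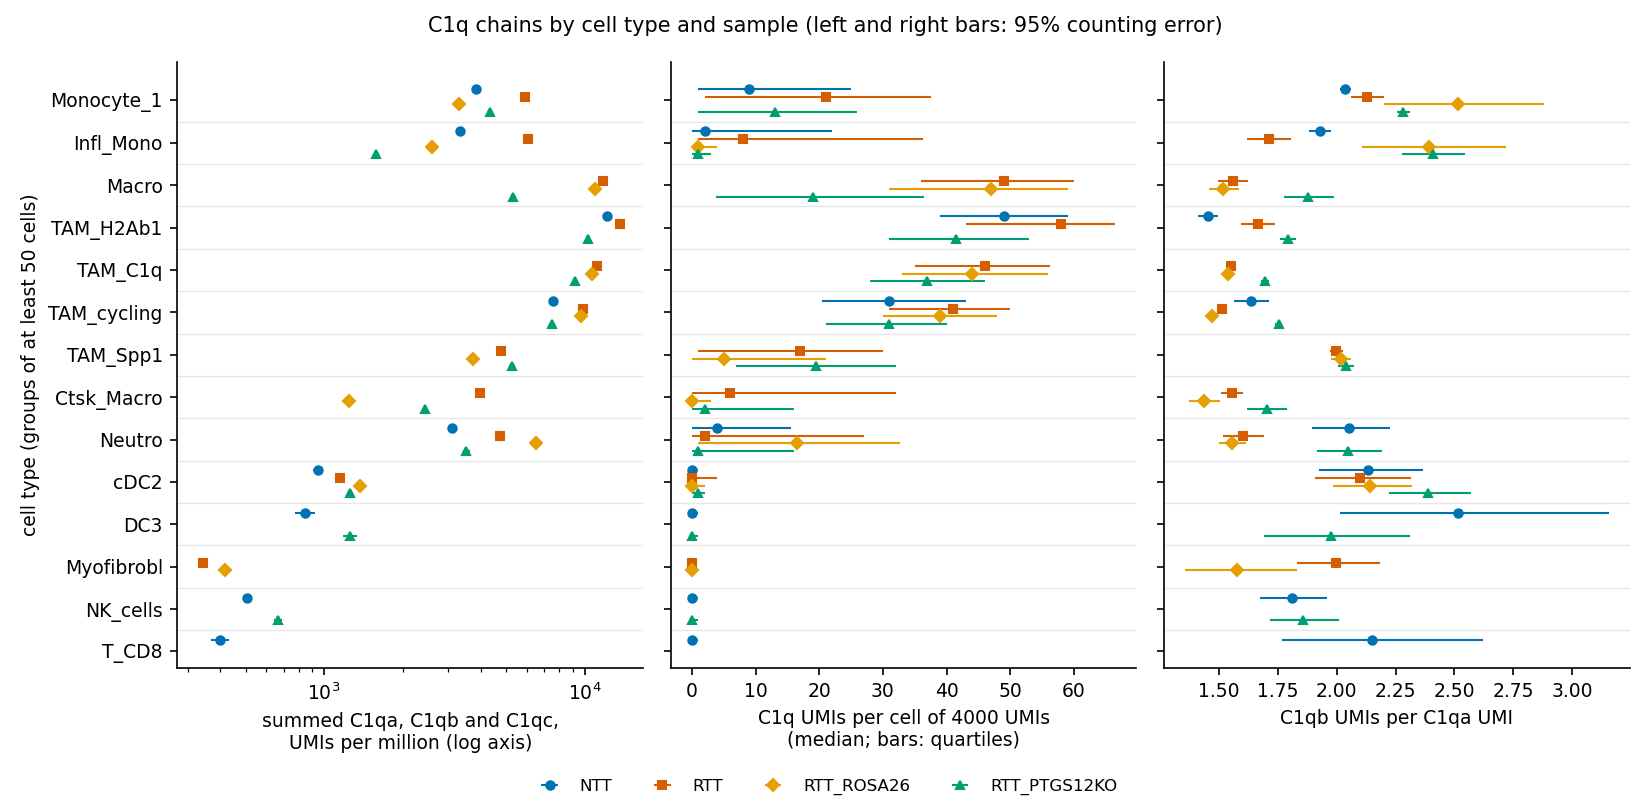
C1q chains in each cell type (rows) of NTT (circles), RTT (squares), RTT_ROSA26 (diamonds) and RTT_PTGS12KO (triangles): summed CPM on a log axis with 95% counting intervals, UMIs per cell thinned to 4000 UMIs (median and quartiles), and the ratio of C1qb to C1qa UMIs with 95% counting intervals. TAM_H2Ab1, TAM_C1q and TAM_cycling lie at or above 7513 CPM, monocytes between 1584 and 6061, and T cells at 398.

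Detection per cell gave the same picture. At 4000 UMIs C1qa was found in 98.3% of TAM_C1q cells in RTT, 97.1% in RTT_ROSA26 and 98.4% in RTT_PTGS12KO (99.1%, 98.1% and 99.5% at full depth, median 13182.5 to 14062.5 UMIs). It was found in 14.6% of T cells in NTT (exact Clopper-Pearson interval 8.01% to 23.7%) and in 15.1% and 18.2% of NK cells in NTT and RTT_PTGS12KO (30.1%, 25.4% and 35% at full depth, median 12453, 7669 and 15524 UMIs). In Monocyte_1 the thinned shares were 57.3% in NTT and 68.9% in RTT, with 52.2% in RTT_ROSA26 and 63.4% in RTT_PTGS12KO. Only 46 Monocyte_1 cells of RTT_ROSA26 were left after thinning, and the interval of its share is 36.9% to 67.1%.

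The ratio of the chains differed between types and, in some types, between samples. C1qb gave 1.55 UMIs per C1qa UMI in TAM_C1q of RTT (interval 1.54 to 1.56), 1.54 in RTT_ROSA26 (1.53 to 1.55) and 1.697 in RTT_PTGS12KO (1.68 to 1.71). In Monocyte_1 the ratio was 2.04 in NTT and 2.13 in RTT, with 2.51 in RTT_ROSA26 and 2.28 in RTT_PTGS12KO. Infl_Mono ran from 1.71 in RTT to 2.41 in RTT_PTGS12KO and Neutro from 1.56 to 2.05, a spread within 1 type about as wide as the gap between TAM_C1q and Monocyte_1. TAM_Spp1 stood at 2.00 to 2.04, above the other macrophage types and Macro (1.44 to 1.88). C1qc gave 0.82 to 0.87 UMIs per C1qa UMI in TAM_C1q and 0.89 to 0.94 in Monocyte_1, a narrower range. In the T cells of NTT the C1qb ratio was 2.15 (1.77 to 2.62).

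C3, the component on which all pathways converge, C4b, the classical pathway component that precedes it, and Cfb, the protease of the alternative pathway C3 convertase, formed another group with the opposite order. C3 in monocytes and macrophages stood at 247 CPM in NTT and 20.1 in RTT, with 11.6 in RTT_ROSA26 and 68.2 in RTT_PTGS12KO. Cfb stood at 459, 21.3, 9.05 and 138 CPM, and C4b at 86.8, 7.57, 10.3 and 39.7. For each of the 3 genes NTT was the highest sample, RTT_PTGS12KO came next, and RTT and RTT_ROSA26 were low. Reads of C4b can be shared with its near-identical neighbour C4a (0.11 to 0.15 CPM), so its value is uncertain, and Cfb overlaps the same-strand readthrough gene Gm20547 and Mir6972 and C3 the same-strand Mir6978, which cannot be told apart by strand.

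**Figure D2:**
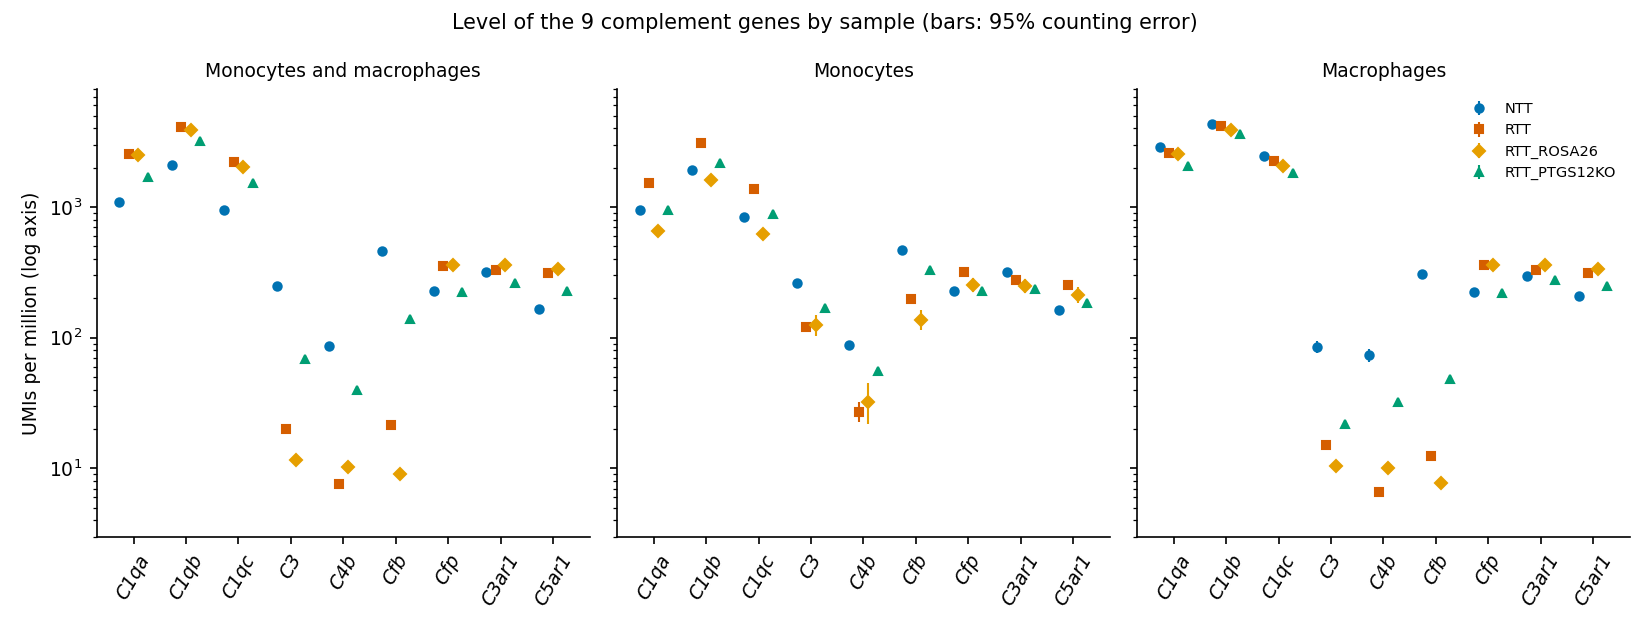
CPM (log axis, bars: 95% counting intervals) of the 9 genes in the 4 samples, for monocytes and macrophages summed and for each alone. C3, C4b and Cfb are highest in NTT in every panel, whereas C1qa, C1qb and C1qc are lowest in NTT in the sum and highest in NTT among macrophages.

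Within monocytes the order was kept but the range was narrower. C3 stood at 259.9 CPM in NTT and 121 in RTT, with 125 in RTT_ROSA26 and 168 in RTT_PTGS12KO, and Cfb at 471, 198, 137 and 332. C4b stood at 87.8, 27.1, 31.9 and 55.8 CPM. Monocytes of the resistant tumours carried C3 and Cfb at levels far above the lymphocytes (C3 11.2 to 15.8 CPM, Cfb 17.6 to 35.0).

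Among macrophages C3 stood at 84.9 CPM in NTT and 15.1 in RTT, with 10.4 in RTT_ROSA26 and 21.8 in RTT_PTGS12KO. Cfb reached 306, 12.4, 7.76 and 48.5 CPM, and C4b 73.6, 6.59, 10.1 and 32.3. The macrophages of NTT, only 308 cells, are mostly TAM_H2Ab1 (192) and TAM_cycling (79), whereas those of RTT are mostly TAM_C1q (3412) and TAM_Spp1 (2057), so these sums rest on different clusters.

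Across types, C3 and Cfb were high in monocytes and differed widely among macrophage types. Monocyte_1 held 121 to 271 CPM of C3 and 211 to 463 of Cfb, and Infl_Mono 106 to 237 and 87.0 to 499.9. TAM_C1q held 9.74 to 13.3 CPM of C3, close to the T cells of NTT (13.5) and the NK cells of NTT (15.8) and RTT_PTGS12KO (11.2), and 7.85 to 17.5 CPM of Cfb, below the T cells of NTT (24.99). Types rich in C1q differed in both genes, since TAM_H2Ab1 held 86.9 to 182 CPM of C3 and 156 to 392 of Cfb, and Macro 53.3 to 119.8 and 172 to 319. C3 was lowest among macrophages in Ctsk_Macro of RTT (2.67 CPM), and Cfb in TAM_cycling of RTT_ROSA26 (6.73). C4b had another pattern: it was highest in Macro, a type led by Retnla, Lyve1 and Cd209f, at 284, 414 and 345 CPM in RTT, RTT_ROSA26 and RTT_PTGS12KO.

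**Figure D3:**
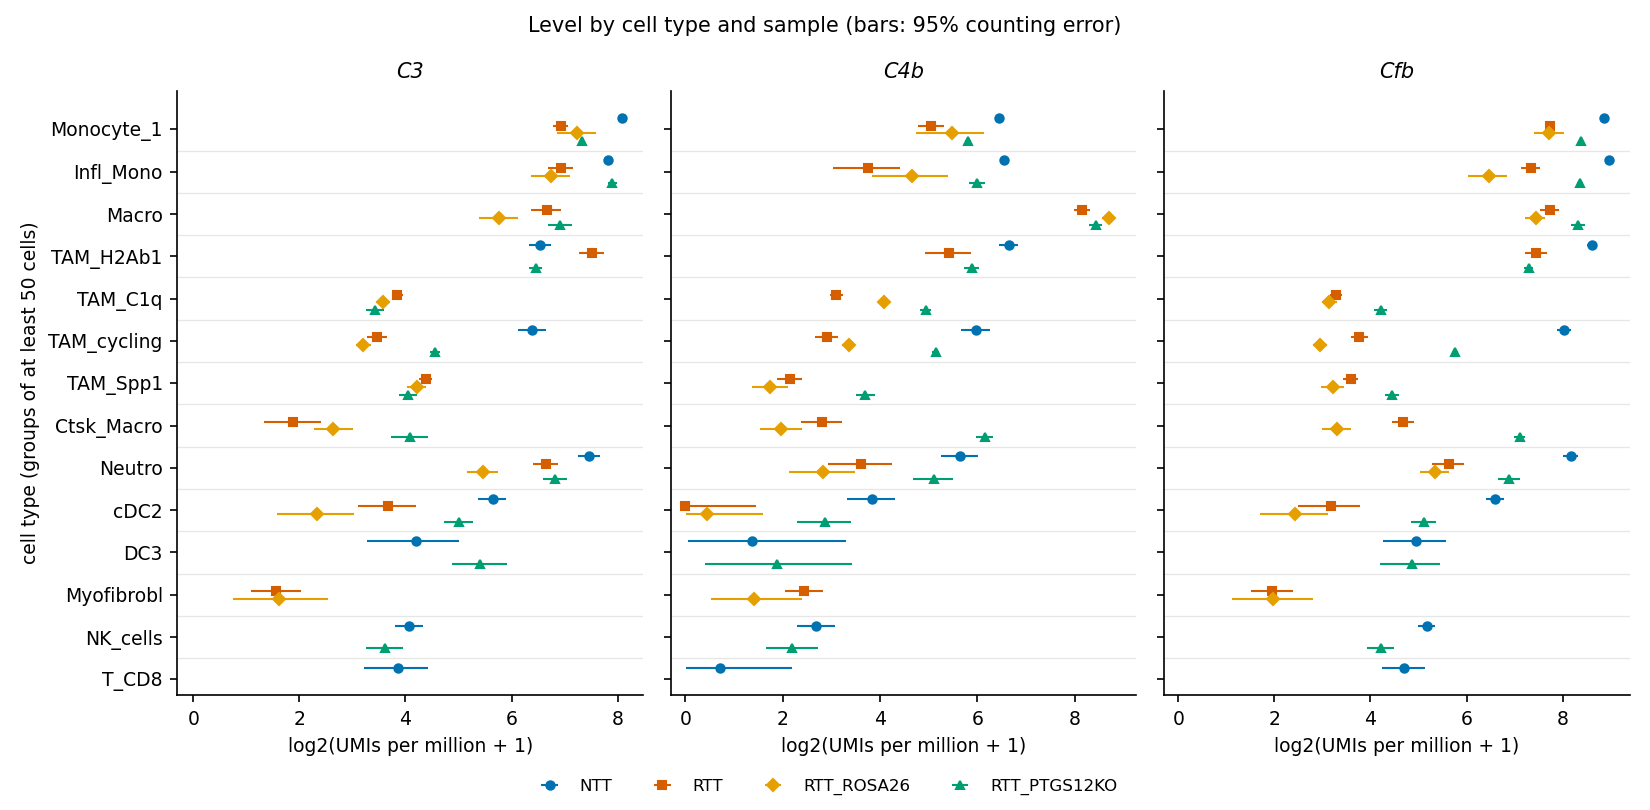
log2(CPM + 1) of C3, C4b and Cfb by cell type (rows) and sample (symbols as in the key), with 95% counting intervals, for groups of at least 50 cells. Monocytes, Macro and TAM_H2Ab1 lie to the right for C3 and Cfb, TAM_C1q lies near NK_cells and T_CD8, and Macro is highest for C4b.

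The share of cells with a UMI showed the same contrast between types. At 4000 UMIs C3 was found in 54.2% of Monocyte_1 cells in NTT and 31.3% in RTT, with 41.3% in RTT_ROSA26 and 39.8% in RTT_PTGS12KO (69.4%, 44.3%, 55.6% and 59.5% at full depth). Cfb was found in 72.3%, 40.9%, 56.5% and 57.1% (83.4%, 57.8%, 64.8% and 76.2% at full depth). The RTT_ROSA26 shares rest on the same 46 cells, with intervals of 27.0% to 56.8% for C3 and 41.1% to 71.1% for Cfb. In TAM_C1q the thinned shares for C3 were 2.94% to 4.01%, and the lymphocytes lay at 3.37% to 3.44%. What free RNA adds to C3 in either was not tested.

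Cfp encodes properdin, the positive regulator that stabilises the alternative pathway convertase, and it was higher in RTT and RTT_ROSA26 than in the other samples. Its level in monocytes and macrophages was 229 CPM in NTT and 355 in RTT, with 362 in RTT_ROSA26 and 223 in RTT_PTGS12KO. Among macrophages it was 224, 357, 363 and 221 CPM, and among monocytes 229, 316, 253 and 228. Cfp thus did not follow C3 and Cfb, although all 3 serve the alternative pathway. It was high in Macro (487 to 1071 CPM), which led in RTT and RTT_ROSA26, in Ctsk_Macro (444 to 586), which led in RTT_PTGS12KO, and in cDC2 (375 to 777), which led in NTT, while lymphocytes held 23.1 to 32.2 CPM.

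Of the receptors, C3ar1 varied less between the samples than C5ar1. C3ar1, the receptor for the C3a peptide, stood in monocytes and macrophages at 317 CPM in NTT and 329.8 in RTT, with 362 in RTT_ROSA26 and 264 in RTT_PTGS12KO. C5ar1, the receptor for C5a, stood at 166, 311, 334 and 228 CPM. C3ar1 was high in TAM_C1q (362 to 447 CPM), Macro of RTT (413), Infl_Mono of RTT (376) and TAM_H2Ab1 of NTT (369). C5ar1 was highest in Neutro (347 to 464 CPM) and stood at 259 to 370.04 in TAM_Spp1, 297 to 358 in TAM_C1q and 201 to 366 in TAM_cycling. Ctsk_Macro was low in C5ar1 (38.3 to 64.8 CPM) but not in C3ar1 (133 to 210.05). Lymphocytes held 25.6 to 30.7 CPM of C3ar1 and 18.6 to 27.0 of C5ar1.

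**Figure D4:**
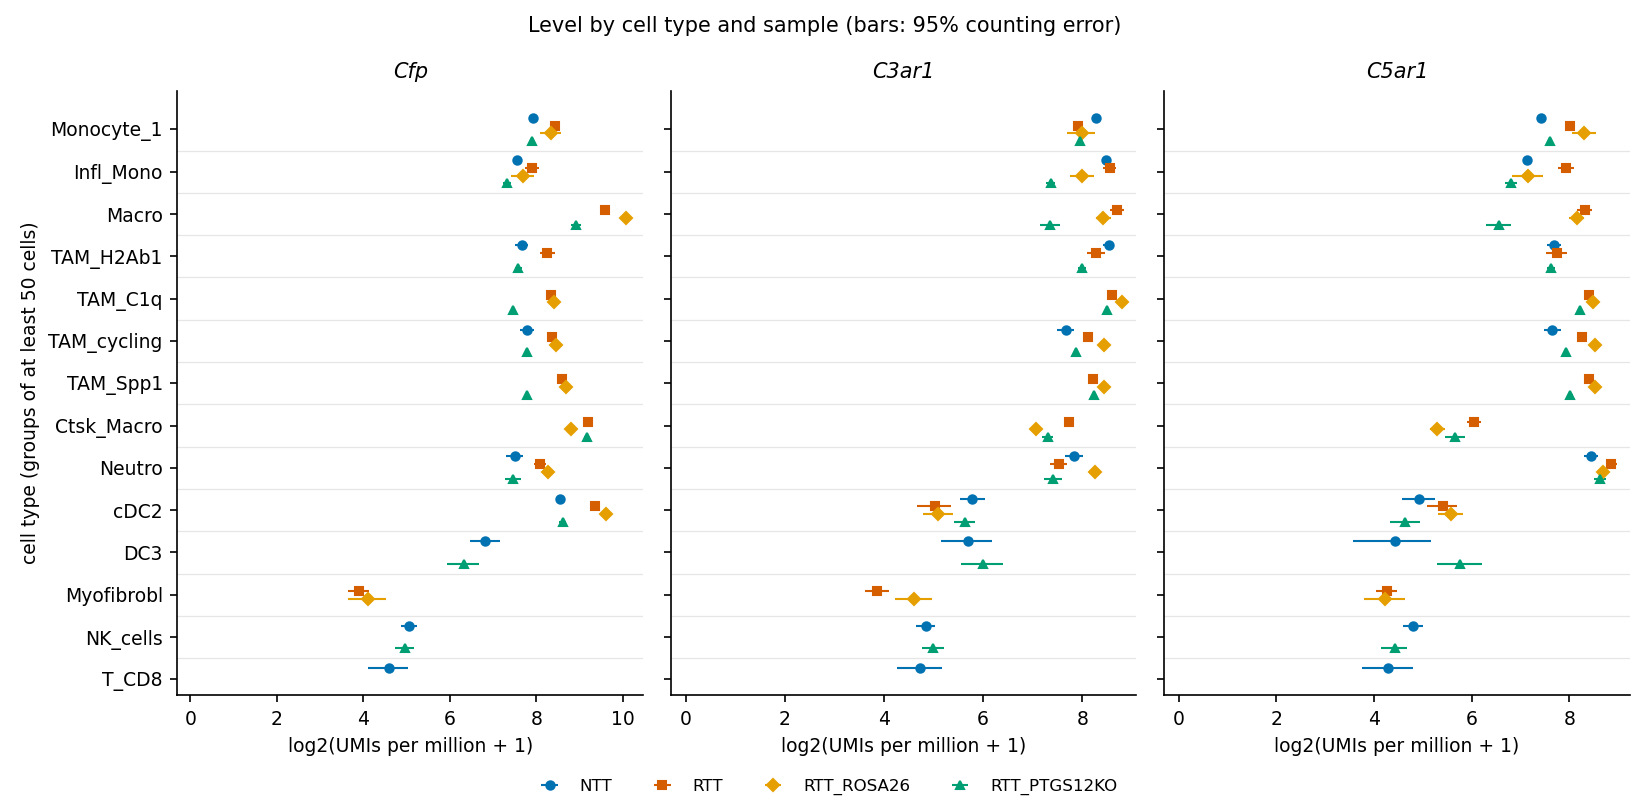
log2(CPM + 1) of Cfp, C3ar1 and C5ar1 by cell type (rows) and sample (symbols as in the key), with 95% counting intervals, for groups of at least 50 cells. Monocytes, macrophage types, Macro and Neutro lie between 133 and 447 CPM for C3ar1, Macro, cDC2 and Ctsk_Macro stand out for Cfp, and Ctsk_Macro is low for C5ar1.

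The comparison of NTT with RTT asked how immune cells differ between tumours of therapy-naive and of therapy-resistant cancer cells. In monocytes and macrophages 3 of the 9 genes were over 2-fold higher in NTT, C3 (log2 ratio 3.55, interval 3.49 to 3.62), C4b (3.36, 3.26 to 3.46) and Cfb (4.37, 4.31 to 4.43), where 6.9 percent of 6954 genes with at least 10 CPM were past that fold. A further 2 were over 2-fold lower, C1qa (−1.22) and C1qc (−1.21), against 7.51 percent of all genes, and C1qb stood just inside the fold at −0.97. The other log2 ratios were −0.90 for C5ar1, −0.63 for Cfp and −0.05 for C3ar1, the last of which turned to 0.09 with TMM scaling. The median log2 ratio was −0.63 for the 9 genes and −0.12 for all genes. With the 4 shared cell types held at equal weights 2 genes stayed past 2-fold, C4b (1.83) and Cfb (1.53), and C3 came to 0.63. In the same sums 7 of 7 monocyte markers were higher in NTT (8554 against 594 CPM in all) and 10 of 10 macrophage markers lower (3106 against 30805), and their part in these ratios was not tested.

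Within macrophages C3 (2.42), C4b (3.30) and Cfb (4.51) remained over 2-fold higher in NTT (4.74 percent of 7061 genes) and 0 genes were over 2-fold lower (3.44 percent), with C1qa at 0.14, C1qb at 0.07 and C1qc at 0.12 by type name and −0.35, −0.29 and −0.39 by marker UMIs. Monocyte markers were again higher in NTT in 5 of 7 cases (2548 against 413 CPM), and 9 of 10 macrophage markers were lower (9772 against 31788). Within types of the same name, Cfb was higher in NTT in TAM_cycling (log2 ratio 4.27, 4.04 to 4.50), TAM_H2Ab1 (1.17, 0.92 to 1.43), Monocyte_1 (1.13, 1.02 to 1.23) and Infl_Mono (1.63, 1.43 to 1.84). C3 was higher in NTT in TAM_cycling (2.92), Monocyte_1 (1.16) and Infl_Mono (0.89) but lower in TAM_H2Ab1 (−0.97, −1.28 to −0.66), which in RTT is 63 cells. The C1q chains were lower in NTT in Monocyte_1 (−0.66 to −0.59) and Infl_Mono (−1.05 to −0.75). They were also lower in NTT in TAM_cycling (−0.45 to −0.34) and lay at −0.23 to −0.04 in TAM_H2Ab1, the macrophage types with at least 50 cells in both samples, although their ratio over all macrophages was above 0. Marker genes differed inside these types too. In NTT against RTT the monocyte markers summed to 3238 against 309 CPM in TAM_cycling, 2133 against 847 in TAM_H2Ab1, 13297 against 6815 in Infl_Mono and 7755 against 3304 in Monocyte_1. The macrophage markers summed to 5607 against 23879, 10163 against 23326, 2471 against 22475 and 2617 against 7263 CPM in the same types, and the part of either in the ratios of C3, Cfb and C1q was not tested.

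**Figure D5:**
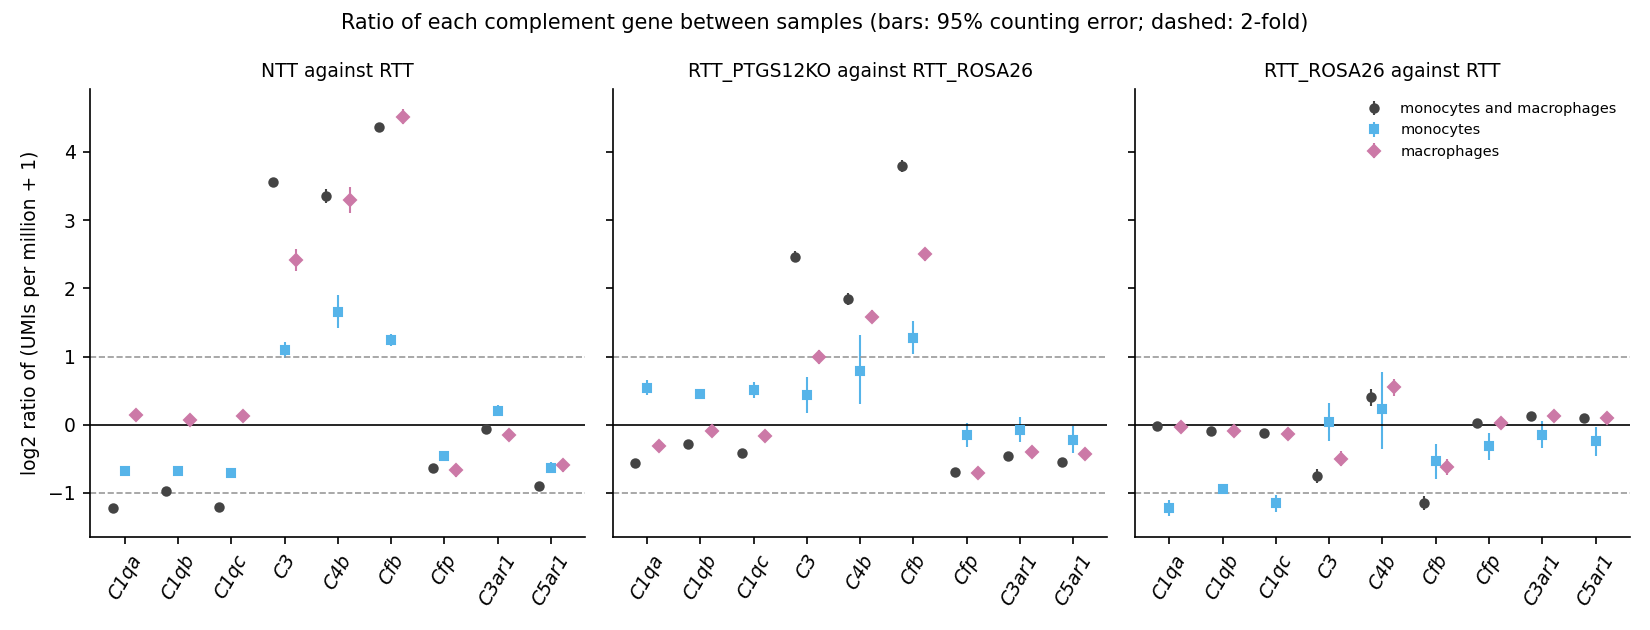
log2 ratio of CPM + 1 of the 9 genes between samples, for monocytes and macrophages summed (circles), monocytes (squares) and macrophages (diamonds), with 95% counting intervals and dashed lines at 2-fold. Cfb, C3 and C4b lie above 0 in the left and middle panels in all 3 classes, and the C1q chains take opposite signs in monocytes and macrophages there.

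RTT_PTGS12KO against RTT_ROSA26 asked what the loss of prostaglandin synthesis in the cancer cells does to the same cells. Again C3 (log2 ratio 2.46, 2.38 to 2.55), C4b (1.85, 1.76 to 1.94) and Cfb (3.79, 3.71 to 3.88) were over 2-fold higher in monocytes and macrophages (4.1 percent of 6954 genes), and 0 of the 9 were over 2-fold lower (1.6 percent). Cfp (−0.69), C1qa (−0.56), C5ar1 (−0.55), C3ar1 (−0.45), C1qc (−0.41) and C1qb (−0.28) were lower by less than that. The median was −0.41 for the 9 genes and −0.12 for all genes. At equal weights of 6 cell types Cfb (1.42) and C4b (1.37) stayed past 2-fold and C3 came to 0.61. Here too 7 of 7 monocyte markers were higher (2678 against 473 CPM) and 10 of 10 macrophage markers lower (9054 against 23242).

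Among macrophages of the same pair C4b (1.58) and Cfb (2.50) were over 2-fold higher (2.52 percent of 7061 genes), C3 lay at the edge (1.00, 0.90 to 1.10), and 0 were over 2-fold lower (0.878 percent). In this class 5 of 7 monocyte markers were higher in RTT_PTGS12KO (823 against 392 CPM in all) and 10 of 10 macrophage markers lower (11700 against 23391), and their part in these ratios was not tested. Cfb was higher in RTT_PTGS12KO in TAM_C1q (1.06, 0.86 to 1.27), TAM_Spp1 (1.23), TAM_cycling (2.81), Ctsk_Macro (3.81), Macro (0.88), Infl_Mono (1.90) and Monocyte_1 (0.66), though in TAM_C1q and TAM_Spp1 it reached only 17.5 and 20.9 CPM, the level of NK cells (17.6). C4b was higher in Ctsk_Macro (4.19, 3.72 to 4.66), TAM_Spp1 (1.96), TAM_cycling (1.79), Infl_Mono (1.33) and TAM_C1q (0.85). In TAM_Spp1 it stood at only 12.0 against 2.33 CPM. C4b was lower in Macro (−0.26, −0.45 to −0.07) and within counting error in Monocyte_1 (0.33, −0.32 to 1.06). C3 did not differ beyond counting error in TAM_C1q (−0.15, −0.37 to 0.06), TAM_Spp1 (−0.15, −0.40 to 0.09) or Monocyte_1 (0.08, −0.28 to 0.46). It was higher in Ctsk_Macro (1.45, 0.94 to 1.95), TAM_cycling (1.35), Macro (1.15) and Infl_Mono (1.15). In Ctsk_Macro and TAM_cycling of RTT_PTGS12KO C3 reached only 16.0 and 22.5 CPM, near the lymphocyte levels already given. Cfp was lower in TAM_C1q (−0.95, −0.996 to −0.894), Macro (−1.14), TAM_Spp1 (−0.91), TAM_cycling (−0.68), Monocyte_1 (−0.44) and Infl_Mono (−0.36) but higher in Ctsk_Macro (0.37).

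C1q differed between types in this comparison. The C1q chains were lower in RTT_PTGS12KO in TAM_C1q (−0.31 to −0.17), TAM_cycling (−0.52 to −0.27) and Macro (−1.24 to −0.94), and higher in TAM_Spp1 (0.46 to 0.59) and Ctsk_Macro (0.79 to 1.07). The macrophage markers were lower in RTT_PTGS12KO than in RTT_ROSA26 in TAM_C1q (18459 against 32534 CPM), TAM_cycling (8908 against 21934), Macro (4933 against 29829), TAM_Spp1 (9822 against 13840.1) and Ctsk_Macro (8913 against 9227). Monocyte markers stood at 963 against 238 CPM in TAM_cycling, 432 against 228 in TAM_C1q, 2542 against 1367 in Macro and 201 against 101 in Ctsk_Macro, but lower in TAM_Spp1 (1088 against 1451), and the part of either list in these ratios was not tested. Whether these types differ in response could not be tested with 1 sample per group.

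RTT_ROSA26 against RTT compares resistant tumours that both keep Ptgs1 and Ptgs2. With 1 sample per group it shows a difference met without the knockout, not the range of such differences. In monocytes and macrophages 0 of the 9 genes were over 2-fold higher (0.532 percent of 6954 genes) and 1 was over 2-fold lower, Cfb (−1.15, −1.25 to −1.05), beside 1.22 percent of all genes. That call was lost with CPM + 10 (−0.72), at equal weights (−0.38) and in load 1 alone (−0.91). C3 (−0.75) and C4b (0.40) came next, and the other 6 lay between −0.12 and 0.13. Their medians were −0.02 for the 9 genes and 0.06 for all genes. Among macrophages 0 were over 2-fold higher (0.524 percent of 7061 genes) and 0 lower (0.779 percent). Within Ctsk_Macro, however, the C1q chains were lower in RTT_ROSA26 by −1.78 to −1.56, a larger difference than any of theirs between RTT_PTGS12KO and RTT_ROSA26 in a macrophage type. C4b in TAM_C1q was higher in RTT_ROSA26 than in RTT (0.98, 0.81 to 1.16), beside its 0.85 (0.70 to 1.01) between RTT_PTGS12KO and RTT_ROSA26. These ratios rest on low levels, 7.57 CPM in RTT, 16.0 in RTT_ROSA26 and 29.6 in RTT_PTGS12KO. This comparison shares RTT with the comparison of NTT and RTT_ROSA26 with that of RTT_PTGS12KO, so its values are set side by side with theirs and were not correlated.

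The loads, technical splits of the same pool, gave nearly equal ratios. For the 9 genes and 3 comparisons the widest range over the 3 loads was 0.36 on the log2 scale, for Cfb in NTT against RTT (4.26 to 4.61). Cfb in RTT_ROSA26 against RTT ran from −1.24 to −0.91, so it lay past 2-fold in some loads only. The loads share the cells' tumours and measure no variation between animals.

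Of 42 other complement genes listed by role, 11 reached 10 CPM in any sample and 6 had no UMI (Mbl1, Mbl2, C7, C8a, C8b and Cfi). By the mean over the samples in monocytes and macrophages 10 of the 42 reached 10 CPM, beside 6954 of all 32285 genes. Of the 15 initiation genes only C1ra, a protease of the C1 complex, and Fcna, ficolin A of the lectin pathway, reached that level. None of the 7 terminal genes and not Cfd, the factor D of the alternative pathway, did so. Most of what was found were receptors (C5ar2, the integrin chains Itgam, Itgax and Itgb2, and Cd93) and regulators (among them Cr1l, Cd59a and C1qbp).

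In monocytes and macrophages C1ra stood at 21.9 CPM in NTT and 6.07 in RTT, with 3.13 in RTT_ROSA26 and 13.3 in RTT_PTGS12KO, the order of C3. Fcna was lowest in NTT, at 1.44, 40.2, 34.6 and 12.8 CPM. Among the 10 genes whose mean over the samples reached 10 CPM, 3 were over 2-fold higher in NTT than in RTT (C1ra at a log2 ratio of 1.696, Itgb2 at 1.14 and Itgax at 1.08) and 5 lower (among them Fcna at −4.08, Cd93 at −1.25, C5ar2 at −1.18 and C1qbp at −1.01), where 6.9 percent and 7.51 percent of all genes were past the fold. In RTT_PTGS12KO against RTT_ROSA26 C1ra was over 2-fold higher (1.79) and Fcna lower (−1.37), beside 4.1 percent and 1.6 percent of all genes, and in RTT_ROSA26 against RTT 0 were past the fold, beside 0.532 percent and 1.22 percent. Itgam, the chain of complement receptor 3, was nearly level (302, 343, 301 and 290.0 CPM).

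Over the 42 groups of 1 sample and 1 cell type with at least 50 cells, the genes split as above. Log2 levels of the C1q chains had Pearson correlations of 0.99 to 1.00 with each other, 0.86 to 0.92 with the receptors and 0.32 to 0.42 with C3 and Cfb. C3 and Cfb correlated at 0.91 and C4b with Cfb at 0.82. These groups share libraries, free RNA and the clustering, and are not independent, so the values are descriptions. Among 7096 other genes the pattern most like C1qa and C1qc was that of Lgmn, the lysosomal protease legumain (0.94 and 0.95), with Grn and Prxl2b next. C1qb was closest to Prxl2b, the macrophage marker Adgre1 and Lgmn (0.93 to 0.94). C3ar1 had Slc7a8 and Adgre1 among its 3 closest genes, and C5ar1 was closest to Cd93 (0.92), Ang and Msr1. Those most like Cfb were Calhm6 (0.93), Rnf213 and Rtp4, and those most like C3 were Klra2, the cytokine subunit gene Il27 and Slfn1 (0.91 each). C4b was closest to Tmbim6 (0.86), Cept1 and Agtrap, and Cfp to Btk (0.92), Pip5k1c and Rbm47. With groups of at least 200 cells 0 to 2 of the 3 genes named for each member stayed the same.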

How the data were processed

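Libraries of 3' tags were made from CD45+ cells of 4 samples that were labelled with oligos, pooled and loaded 3 times. The deposited file holds UMI counts for every gene in every cell, beside the sample and the cell type that the authors gave it, made per the study's methods with cellranger multi on mm10, with Seurat (4.3.0 in the submitters' processing notes) for later steps, after a filter on genes and mitochondrial UMIs per cell (lowest 1001 genes and highest 15.0% in the deposited cells). Their columns of UMI and gene totals per cell were not used, and 0 other columns were left out. UMIs were summed per sample and type and divided by the total (CPM), and ratios are log2 of CPM + 1 with exact Poisson intervals joined by the MOVER method. Members and lists were chosen with earlier results of these data known. With 1 sample per group no test was run. Counts past 2-fold used genes whose mean over the samples reached 10 CPM. Named genes were the 9 members, other complement genes reaching 10 CPM and, for each member, the 3 genes of highest correlation over groups of at least 50 cells. Cells were thinned to 4000 UMIs for shares and per-cell values, which left out 772 cells of NTT and 163, 227 and 309 of RTT, RTT_ROSA26 and RTT_PTGS12KO. Oligos removed doublets that join samples, doublets within a sample were not called, and leaving out the 5% of cells with most UMIs was an alternative. Other alternatives were CPM + 10, TMM factors, a stricter cell filter (over 1500 genes, mitochondrial share under 10%), equal weights for cells or cell types, thinning, assignment by marker UMIs, single loads and, chosen after seeing the data, leaving out TAM_cycling. The steps were tested on simulated data. Python 3.11.15, numpy 2.4.6, scipy 1.17.1, pandas 2.3.3, matplotlib 3.10.9 and edgeR 4.0.16 in R 4.3.3 (TMM factors only) were used. Gene coordinates came from GENCODE on GRCm38, and promoter sequences from RefSeq on GRCm38.p6. Some genes that the rule names are not reported here.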

Additional observations from a re-analysis of the deposited data

Results flagged for a closer look

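Some ratios took opposite signs in monocytes and in macrophages of the same pair of samples, which was 9 of 27 pairs of values. With 1 sample per group the difference between monocytes and macrophages was not tested. For NTT against RTT the log2 ratio of C1qa was −0.68 in monocytes and 0.14 in macrophages, that of C1qb −0.67 and 0.067, that of C1qc −0.71 and 0.12, and that of C3ar1 0.21 and −0.16. Of these, the C1q chains and C3ar1 changed sign in macrophages, and the C1q chains in monocytes too, when cells were assigned by marker UMIs. For RTT_PTGS12KO against RTT_ROSA26 C1qa stood at 0.55 in monocytes and −0.31 in macrophages, C1qb at 0.45 and −0.10, and C1qc at 0.51 and −0.17, and these signs were the same by marker UMIs. The monocytes of RTT_ROSA26 are 144 cells, 86 of them Infl_Mono, whereas those of RTT_PTGS12KO are mostly Monocyte_1 (3347 of 4015). Within Infl_Mono C1qa was lower in RTT_PTGS12KO (−0.72) and within Monocyte_1, only 54 cells in RTT_ROSA26, higher (0.48). Macrophage markers stood at 2660 CPM in RTT_PTGS12KO against 10110 in RTT_ROSA26 in Infl_Mono and 3439 against 6315 in Monocyte_1, monocyte markers at 15926 against 10423 and 5405 against 5680, and their part was not tested. For RTT_ROSA26 against RTT C5ar1 stood at −0.24 in monocytes and 0.093 in macrophages, and Cfp at −0.32 and 0.022.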

How the results depend on the processing

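No paired analysis was possible because the groups hold 1 sample each. The number of the 9 genes past 2-fold was 5 in NTT against RTT and fell to 2 with cell types at equal weights, and it was 5 or 6 under the other 8 alternatives. It was 3 in RTT_PTGS12KO against RTT_ROSA26 and 2 or 3 under every alternative run. It was 1 in RTT_ROSA26 against RTT, 0 with CPM + 10 and 0 at equal weights. Single loads were not part of these counts, and in load 1 the gene of the last count, Cfb, came to −0.91, inside 2-fold. TMM factors add 0.15 to each log2 ratio of NTT against RTT, 0.17 to RTT_PTGS12KO against RTT_ROSA26 and −0.09 to RTT_ROSA26 against RTT. Of the single log2 ratios under an alternative, 143 stayed within the counting interval of the main value and 191 moved outside it. A further 17, whose main interval lay away from 0, changed sign. In NTT against RTT, C3ar1 came to 0.093 with TMM and 0.037 at equal weights, and with cells assigned by marker UMIs C1qa, C1qb, C1qc and C3ar1 in macrophages came to −0.35, −0.29, −0.39 and 0.31, and C1qa, C1qb and C1qc in monocytes to 0.49, 0.21 and 0.45. In RTT_ROSA26 against RTT, C1qa came to 0.021 in load 2, C3, C3ar1 and Cfp at equal weights to 0.053, −0.0067 and −0.094, C5ar1 without TAM_cycling to −0.0062, Cfp to −0.064 with TMM and −0.020 in load 1, and C5ar1 in monocytes by marker UMIs to 0.24. The cause of these changes was not tested, beyond that equal weights use only types with at least 50 cells in both samples. Low levels limit C4b and Cfb in types with few cells.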
